A study of Mus musculus with 2 samples.

Results

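The mouse genes of the cell division engine were compared between lymph nodes that drain a mammary tumor and nodes of normal mice. The set holds the cyclins of classes A, B, D and E, the cyclin-dependent kinases (CDKs), the INK4 and CIP/KIP inhibitors of those kinases, the E2F transcription factors and the minichromosome maintenance (MCM) proteins. Members were taken by gene symbol from the non-control probes of the array, with 1 inhibitor gene left out by the rule. This gave 51 genes, read by 108 probes, of 37008 gene names on the array. In the tumor-draining sample, 4T1 cells had been inoculated subcutaneously at the mammary gland and the draining nodes were taken 2 weeks later. In the normal sample, nodes came from mice without a tumor. Both samples were female, the labels name C57BL/6 mice, and both were sorted as CD45- stromal cells. The 4T1 line derives from a BALB/c mammary carcinoma, so tumor and host strain differ as labeled, and that cannot be told apart from the tumor itself. The labels give no age and do not say whether nodes were pooled. Each sample was hybridized to 1 one-color Agilent array, so no difference below has a replicate check and no p-value is given.

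D cyclins bind Cdk4 and Cdk6, and E cyclins bind Cdk2, to phosphorylate the retinoblastoma family of pocket proteins. This releases E2F factors, which switch on genes for DNA synthesis, among them the MCM genes. The proteins Mcm2 to Mcm7 form the ring that opens DNA at replication origins, and A and B cyclins with Cdk1 and Cdk2 then drive S phase and mitosis. INK4 proteins block Cdk4 and Cdk6, while CIP/KIP proteins bind a wider range of cyclin and kinase pairs. Several CDKs work mainly outside the cell cycle, on RNA polymerase II. In lymph nodes, dividing cells are mostly lymphocytes, and fibroblastic and endothelial stroma divides when a node grows.

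Signals are the scanner's background-subtracted intensities. Differences are on the log2 scale, tumor-draining minus normal, after each array was scaled to the 75th percentile of its signal (358 on the tumor-draining array and 374 on the normal array). A gene stands by its brightest probe, and a gene is called higher or lower by size alone, at 2-fold. Over the 24656 genes that passed the background mark on 1 or both arrays, the median difference was 0.10. Scaling to spike-in RNA added 0.82 to every difference, so groups of genes are described relative to the median of all genes, which that scaling leaves as it is. Repeat spots of 1 probe had an SD of 0.063 in the log2 difference over 298 probes. Different probes of 1 gene had a median SD of 0.27 over 7599 genes, and of 0.13 over the 27 members with several probes above background on both arrays. The scanner software's own error of a member's difference lay between 0.20 and 0.33, and 39 of 48 members differed by more than it. None of these errors covers differences between mice or between sorts.

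Marker genes show what else the sorted cells held. Ptprc, which encodes CD45, had a signal of 17432 on the tumor-draining array, against 3702 on the normal array. All 8 pan-leukocyte markers were at least 2-fold higher, and their summed signal was 109036 on the tumor-draining array, against 30247 on the normal array. Of 10 T cell markers 9 were higher (54893 against 12836), of 9 B cell markers 6 (61705 against 27672), of 9 germinal center B cell markers 5 (10515 against 7060), of 8 plasma cell markers 5 (34625 against 14250), and of 9 myeloid markers measured 1 (45012 against 38584). Stromal markers were above background on both arrays, and most were lower on the tumor-draining array, although 1 lymphatic endothelial marker was at least 2-fold higher and 1 mural marker at least 1.5-fold higher. Lower by at least 2-fold were 12 of 13 markers of fibroblastic reticular cells (summed signal 122369 on the tumor-draining array, against 328487 on the normal array), as were 12 of 12 blood endothelial (15760 against 81137), 8 of 9 lymphatic endothelial (15638 against 50558) and 7 of 10 mural markers (24162 against 54252). Pdpn, a glycoprotein of fibroblastic reticular cells, had signals of 1139 on the tumor-draining array and 4624 on the normal array, and the endothelial adhesion protein Pecam1 had 248 and 581 in the same order. Of 11 epithelial and carcinoma markers measured 2 were higher (8526 against 5709), and of 7 erythroid markers measured 3 were lower (63363 against 164868). No marker was at 0. Among the markers, Tnfrsf17 passed the background mark on the tumor-draining array alone, and Fcgr1, Elf3 and Epb42 did so on neither. Fewer cells of a type and less RNA per cell cannot be told apart in such bulk samples, and the part of these markers in the results below was not tested.

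Most members differed little between the arrays. Of the 51 genes, 48 were above background on both arrays, and Ccna1, Ccnb3 and Ccne2 were above it on neither. Only Cdk13 was at least 2-fold higher on the tumor-draining array, 1 of 48 members, where 11.5% of all measured genes were. Ccnd1, Cdk14, Cdkn1a, E2f7, Cdk18 and Cdk15 were at least 2-fold lower, 6 of 48, where 16.5% of all measured genes were. Scaled to the spike-ins, 21 members were at least 2-fold higher, beside 46.0% of all genes, and 2 lower, beside 8.01%. At 1.5-fold, 9 members were higher, beside 24.7% of all genes, and 11 lower, beside 23.5%. The remaining 28 members lay within 1.5-fold. The median of the members was 0.03, or -0.07 relative to all genes, with 21 members above the median of all genes and 27 at or below it. The groups did not share 1 direction: 8 of 9 MCM genes lay above the median of all genes, while all 3 measured A and B cyclins and 6 of 8 E2F genes lay at or below it.

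**Figure D1:**
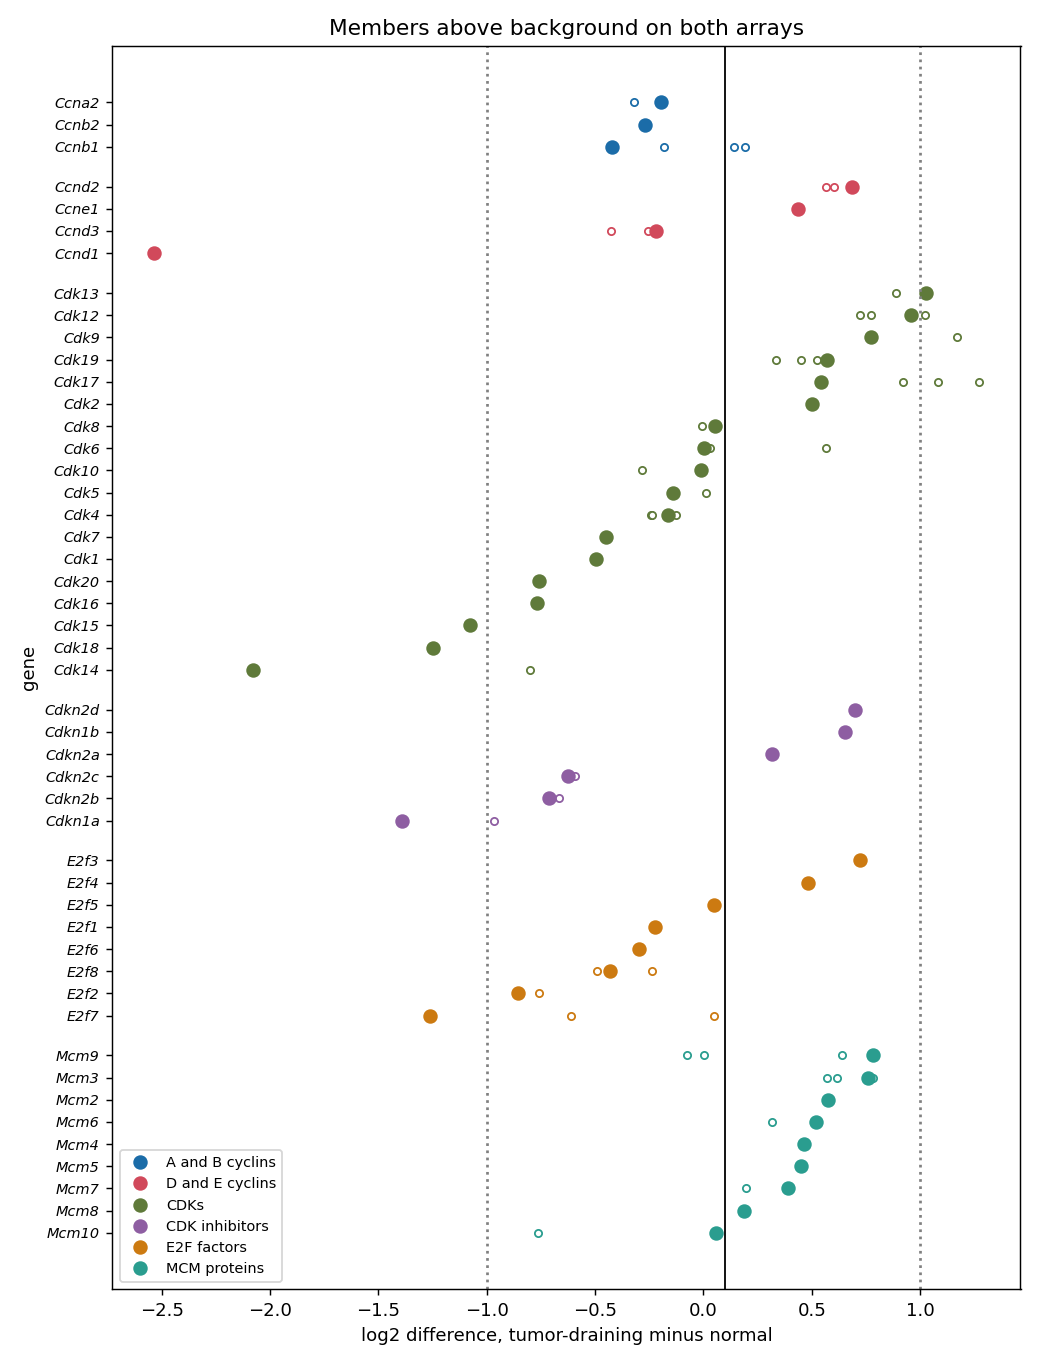
Log2 difference, tumor-draining minus normal (x axis), of the 48 members above background on both arrays, grouped by family down the page. Filled points are the probe that stands for the gene and open points the further probes that passed the background mark on both arrays; the solid line is the median of all genes (0.10), the dotted lines mark 2-fold, and the filled points run from -2.54 for Ccnd1 to 1.03 for Cdk13.

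The 3 D cyclins, the partners through which growth signals reach Cdk4 and Cdk6, went different ways. Ccnd1 had a signal of 229 on the tumor-draining array, against 1384 on the normal array, a difference of -2.54 or 5.80-fold lower. This was the largest difference of any member in size, and the array holds 1 probe for it, at chr7:152116202-152116261 on the minus strand (mm9, the build of all probe positions here). Ccnd2 had a signal of 10375 on the tumor-draining array, against 6732 on the normal array, a difference of 0.69, and its 3 probes ranged from 0.56 to 0.69. Ccnd3 had 7999 on the tumor-draining array and 9708 on the normal array, a difference of -0.22, with 3 probes between -0.43 and -0.22. The probes of Ccnd2 and of Ccnd3 thus did not overlap in their differences, and both genes lay far from Ccnd1. Ccne1, which activates Cdk2 at the start of S phase, had signals of 605 on the tumor-draining array and 466 on the normal array, a difference of 0.44. Relative to all genes, the 4 measured D and E cyclins had a median of 0.01.

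The kinases of the cell cycle itself moved by less than 1.5-fold. Cdk4 had signals of 4568 on the tumor-draining array and 5339 on the normal array (-0.16), with 4 probes from -0.24 to -0.13. Cdk6 had 679 on the tumor-draining array and 707 on the normal array (0.00), although 1 of its 3 probes gave 0.57. So neither partner of the D cyclins showed a difference of the size seen for Ccnd1. Cdk2, the partner of E and A cyclins, had 174 on the tumor-draining array and 128 on the normal array (0.50). Cdk1, the mitotic kinase, had 75.1 on the tumor-draining array and 110 on the normal array (-0.50). Both rest on 1 probe each, and their signs are opposite. Relative to all genes, the 4 kinases had a median of -0.18, and 1 of them lay above the median of all genes.

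A and B cyclins, the mitotic partners of Cdk1, were close to Cdk1 in direction but small in size. Ccnb1 had a signal of 367 on the tumor-draining array, against 514 on the normal array (-0.42). Its 4 probes ranged from -0.42 to 0.19, so its sign depends on the probe, and their mean was -0.07. Ccnb2 had 1581 on the tumor-draining array and 1990 on the normal array (-0.27, 1 probe). Ccna2, which acts in S phase and G2, had 905 on the tumor-draining array and 1081 on the normal array (-0.19, 2 probes down to -0.32). The median of the 3 was -0.37 relative to all genes.

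Probes of 60 bases are shown for Cdk1, on the lower side of the set, and for Ccnd2, Mcm3 and Cdk13, on its higher side. These 4 probes are examples, and those of Ccnd2 and Mcm3 are not the brightest of their genes. Their positions are chr10:68805423-68807832, chr6:127098696-127098755, chr1:20795363-20795879 and chr13:17858414-17864167, all on the minus strand. Those of Cdk1, Mcm3 and Cdk13 cover more of the genome than their own length, so each joins at least 2 blocks of the gene. The Ccnd2 probe, 1 of 3, gave a difference of 0.56, and that of Mcm3 gave 0.78.
Cdk1: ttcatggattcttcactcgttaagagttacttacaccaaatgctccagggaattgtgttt
Ccnd2: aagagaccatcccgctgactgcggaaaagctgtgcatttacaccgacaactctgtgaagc
Mcm3: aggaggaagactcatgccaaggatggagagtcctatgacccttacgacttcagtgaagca
Cdk13: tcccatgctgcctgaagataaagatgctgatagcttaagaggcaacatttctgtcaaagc

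Kinases that act on RNA polymerase II and its Mediator complex were mostly on the higher side. Cdk13, which phosphorylates the polymerase tail during elongation, had a signal of 1284 on the tumor-draining array, against 658 on the normal array, a difference of 1.03 or 2.04-fold higher, and its second probe gave 0.89. With normexp background correction, which draws low signals together, it was 0.95, under 2-fold. Cdk12, its close relative, had 708 on the tumor-draining array and 381 on the normal array (0.96), with 4 probes from 0.72 to 1.02. Cdk9, the kinase of the elongation factor P-TEFb, had 5463 on the tumor-draining array and 3337 on the normal array (0.77), and its other probe gave 1.17. All 8 probes of these 3 genes were thus on the higher side, between 0.72 and 1.17. The Mediator kinases parted, with Cdk19 at 1739 on the tumor-draining array and 1221 on the normal array (0.57) and Cdk8 at 1047 and 1053 in the same order (0.05). Cdk7, the CDK-activating kinase and a subunit of TFIIH, had 118 on the tumor-draining array and 168 on the normal array (-0.45). Relative to all genes the 6 kinases had a median of 0.57, with 4 of them above the median of all genes. Cyclin partners of these kinases, chosen here by the list rule or after their values were seen, gave 1.03 for Ccnt1 and 1.10 for Ccnt2, the partners of Cdk9, and 0.67 for Ccnk, the partner of Cdk12 and Cdk13. The 3 probes of Ccnt1 ran from 0.92 to 1.86, the 5 of Ccnt2 from 0.22 to 1.10 and the 2 of Ccnk from 0.67 to 1.15. Ccnh and Mnat1, which join Cdk7, gave -0.01 and -0.27. Ccnc, which joins Cdk8 and Cdk19, gave -0.22, with 4 probes from -0.22 to 0.25. Ccnk, Ccnh and Mnat1 were the ones chosen after their values were seen.

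Of the 5 PCTAIRE and PFTAIRE kinases, a branch active in differentiated cells, 3 were at least 2-fold lower, beside 16.5% of all genes. Cdk14, which binds cyclin Y at the membrane in Wnt signaling, had a signal of 89.0 on the tumor-draining array, against 392 on the normal array, a difference of -2.08. Its other probe above background on both arrays gave -0.80, so the mean over the 2 was -1.44. Cdk18 had 42.9 on the tumor-draining array and 106 on the normal array (-1.25), and Cdk15 had 10.7 and 23.5 in the same order (-1.07). Both signals are low, and normexp correction gave -0.68 for Cdk18 and -0.18 for Cdk15, both under 2-fold. Cdk16 had 71.5 on the tumor-draining array and 127 on the normal array (-0.77). Cdk17 differed from its relatives, with 359 on the tumor-draining array and 257 on the normal array (0.54), and its 4 probes reached 1.27. Relative to all genes, the 5 kinases had a median of -1.17. Of the other kinases, Cdk20 had 144 on the tumor-draining array and 255 on the normal array (-0.76). Cdk5, known from neurons, gave -0.14 and Cdk10 gave -0.01. Fibroblastic and endothelial markers were lower on the same array, as given above, and a link between them and these kinases was not tested.

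**Figure D2:**
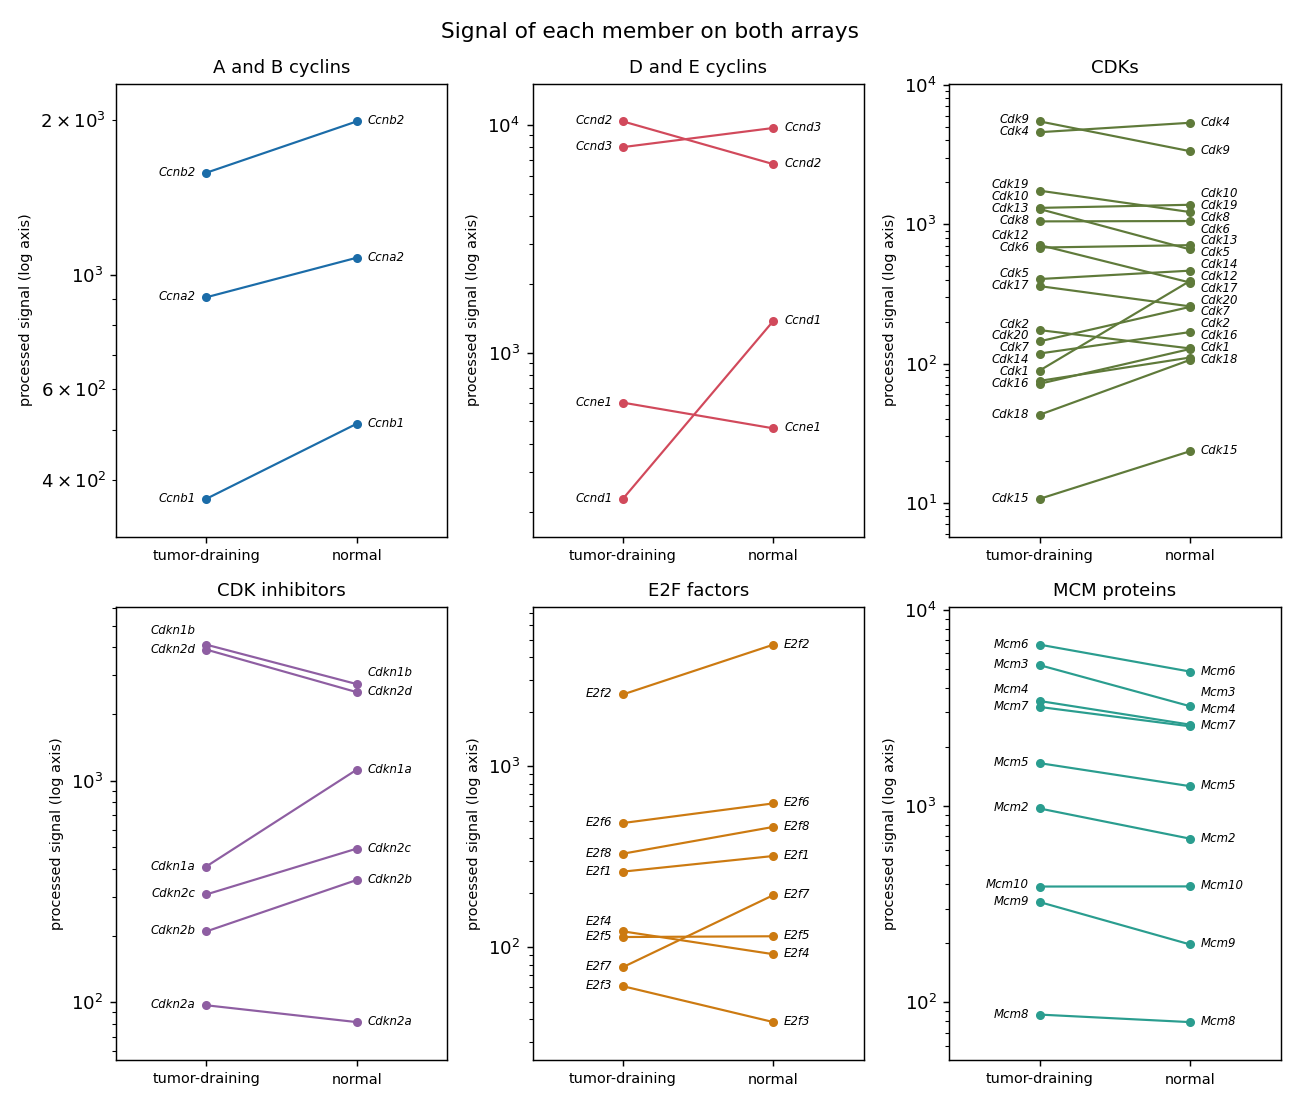
Processed signal (log axis) of the members above background on both arrays, 1 panel per family, with the tumor-draining array left and the normal array right and a line for each gene, with names spread to avoid overlap but in the order of the points. Slopes within a gene can be read, but heights of different genes come from different probes and are not comparable; Ccnd1 (229 against 1384), Cdk14 (89.0 against 392) and Cdkn1a (410 against 1123) have the largest differences.

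The inhibitors split evenly. Cdkn1a, the p21 protein induced by p53 and by growth arrest, had a signal of 410 on the tumor-draining array, against 1123 on the normal array, a difference of -1.39 or 2.62-fold lower. Its second probe above background on both arrays gave -0.97. Cdkn1b, the p27 protein that holds resting cells out of the cycle, went the other way with 4114 on the tumor-draining array and 2730 on the normal array (0.65), and both its probes gave 0.65. Among INK4 genes, Cdkn2d was higher, with 3909 on the tumor-draining array and 2510 on the normal array (0.70). Cdkn2b had 209 on the tumor-draining array and 357 on the normal array (-0.71), and Cdkn2c had 307 and 494 in the same order (-0.63). The 2 probes of each were within 0.05 of one another, but those of Cdkn2c overlap in position. Cdkn2a had 97.0 on the tumor-draining array and 81.4 on the normal array (0.31), and 1 of its 2 probes was above background. That probe lies 32.0 kb from the brightest of Cdkn2b on chromosome 4, and the 2 neighbors had opposite signs. The 6 inhibitors had a median of -0.26 relative to all genes.

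Of 12 genes of p53, a known activator of Cdkn1a, and its targets, 2 were at least 2-fold higher and 1 lower, shares near those of all genes (11.5% and 16.5%). The lowest were Phlda3 (-2.15), a brake on Akt, and Zmat3 (-0.78), and the highest were Sesn1 (1.02) and Bbc3 (1.15), which encodes the death protein Puma. The list's median was 0.19 relative to all genes.

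Among E2F factors, 6 of 8 lay at or below the median of all genes. Of the activators, E2f2 had a signal of 2493 on the tumor-draining array, against 4700 on the normal array (-0.85), and its second probe gave -0.76. E2f1 had 261 on the tumor-draining array and 319 on the normal array (-0.23). E2f3 had 60.8 on the tumor-draining array and 38.5 on the normal array (0.72), or 0.35 with normexp correction. The 3 activators therefore did not share a sign. E2f4 and E2f5, which act with pocket proteins to hold genes off, gave 0.48 (122 on the tumor-draining array, 91.3 on the normal array) and 0.05 (114 and 115). E2f7, an atypical repressor, had 77.4 on the tumor-draining array and 194 on the normal array (-1.26). Its 3 probes ranged from -1.26 to 0.05, with a mean of -0.61, so its call rests on the probe chosen, and normexp correction gave -0.87. E2f8, the other atypical repressor, had 328 on the tumor-draining array and 462 on the normal array (-0.43), with 3 probes from -0.49 to -0.24. E2f6, a repressor that acts without pocket proteins, had 485 on the tumor-draining array and 623 on the normal array (-0.30). The family median was -0.36 relative to all genes. The 11 pocket proteins, DP partners and MuvB subunits, with which E2F factors act, had a median of 0.37 relative to all genes, and 1 was at least 2-fold higher and 0 lower, beside 11.5% and 16.5% of all genes. The lowest were Tfdp2 (-0.25) and Foxm1 (-0.09), and the highest were the pocket protein gene Rbl2 (0.86) and Lin52 (1.17), a MuvB subunit. The other Lin52 probe above background on both arrays gave 0.55, so its 2-fold call rests on the probe chosen.

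The 6 genes of the MCM2-7 helicase lay close together, between 0.39 and 0.76. Mcm3 had a signal of 5223 on the tumor-draining array, against 3224 on the normal array (0.76), and its 4 probes ranged from 0.57 to 0.78. Mcm2 had 972 on the tumor-draining array and 682 on the normal array (0.57). Mcm6 had 6641 on the tumor-draining array and 4841 on the normal array (0.52), and its other probe gave 0.31. These differences, like those that follow, are all under 2-fold. Mcm4 had 3429 on the tumor-draining array and 2598 on the normal array (0.46). Mcm5 had 1654 on the tumor-draining array and 1262 on the normal array (0.45). Mcm7 had 3198 on the tumor-draining array and 2547 on the normal array (0.39), and its other probe gave 0.19. All 6 lay above the median of all genes, here and in each of the 12 alternative settings, and their median was 0.39 relative to all genes. Not all settings could change this: the other scalings shift every gene alike, and keeping outlier spots left the values as they were. The filters of genes also left the 6 values as they were and moved only the median of all genes.

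The MCM proteins outside that ring varied more. Mcm9, which works with Mcm8 in recombination repair, had 324 on the tumor-draining array and 197 on the normal array (0.78). Its 4 probes formed 2 pairs 74.0 kb apart on chromosome 10: those at chr10:53331160-53331219 and beside it gave 0.78 and 0.64, and those at chr10:53257130-53257189 and beside it gave 0.00 and -0.07. The probes of the pair with the higher values overlap in position. The 1st probe of each pair is shown, since the value of the gene turns on which end is read.
Mcm9, 53331160: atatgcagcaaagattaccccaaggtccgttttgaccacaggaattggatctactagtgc
Mcm9, 53257130: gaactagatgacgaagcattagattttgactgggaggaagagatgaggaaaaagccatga

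Mcm8 had 86.7 on the tumor-draining array and 79.3 on the normal array (0.19). Mcm10, which helps load the polymerase, had 389 on the tumor-draining array and 390 on the normal array (0.06), but its second probe gave -0.76. Mcm8 and Mcm10 were thus nearer to 0 than the ring, and probes of Mcm9 and of Mcm10 parted.

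Promoters of the MCM ring were read for the E2F motif, because E2F factors are the known drivers of these genes. RefSeq promoter windows (GRCm38.p6, 250 bases before to 50 after the start) were matched by symbol for 41 of the 51 members, and not for Ccna2, Ccnd1, Ccnd2, Ccne2, Cdk17, Cdk19, Cdk5, E2f4, E2f5 and Mcm4. The motif was any of TTTCCCGC, TTTCGCGC, TTTGCCGC and TTTGGCGC, on both strands, and matches may overlap. It occurred in 11 of 41 members (26.8%), against 704 of 27025 genes with a window (2.60%). By family it occurred in 5 of 8 MCM genes, 3 of 6 E2F genes, 2 of 15 CDKs, 1 of 6 inhibitors, and in 0 of 4 A and B and 0 of 2 D and E cyclins. Another 2 motifs were searched in the same windows on both strands. TTTGAA, the core of the CHR element of mitotic genes, occurred in 8 of 41 members (19.5%), against 20.2% of all genes with a window. CCAAT occurred in 26 of 41 members (63.4%), against 41.1% of all genes, and in 8 of 8 MCM genes. Of the 5 MCM2-7 genes with a window, 4 held the E2F motif, and those windows are shown with that of Cdk1. Cdk1 holds the E2F motif too but was on the lower side, as were the holders E2f2 (-0.85) and E2f7 (-1.26). The other holders of the E2F motif were Cdk2, Cdkn2a, E2f3 and Mcm8. A gene with several windows counted if any of them held the motif. For Cdkn2a, E2f2 and E2f3, 1 of 2 windows held it: chr4:89294570-89294869, chr4:136172024-136172323 and chr13:29986014-29986313, in that order. Capitals mark the E2F motif. The windows are chr1:20820263-20820562 for Mcm3, chr8:75109259-75109558 for Mcm5, chr1:128359656-128359955 for Mcm6, chr5:138171834-138172133 for Mcm7 (the window of 2 that holds the motif) and chr10:69352863-69353162 for Cdk1, all on the minus strand except that of Mcm5.
Mcm3: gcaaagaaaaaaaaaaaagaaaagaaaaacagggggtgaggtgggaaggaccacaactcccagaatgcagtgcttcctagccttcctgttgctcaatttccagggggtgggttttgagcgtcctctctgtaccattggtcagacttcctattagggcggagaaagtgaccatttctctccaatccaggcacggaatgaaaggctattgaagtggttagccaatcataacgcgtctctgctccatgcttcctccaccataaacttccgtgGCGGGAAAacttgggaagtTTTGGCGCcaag
Mcm5: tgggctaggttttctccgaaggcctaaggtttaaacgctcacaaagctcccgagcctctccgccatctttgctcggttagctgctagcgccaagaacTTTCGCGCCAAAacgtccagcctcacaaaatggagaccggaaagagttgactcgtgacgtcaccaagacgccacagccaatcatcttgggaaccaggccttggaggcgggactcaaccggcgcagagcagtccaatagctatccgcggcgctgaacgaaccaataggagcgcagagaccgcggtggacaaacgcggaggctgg
Mcm6: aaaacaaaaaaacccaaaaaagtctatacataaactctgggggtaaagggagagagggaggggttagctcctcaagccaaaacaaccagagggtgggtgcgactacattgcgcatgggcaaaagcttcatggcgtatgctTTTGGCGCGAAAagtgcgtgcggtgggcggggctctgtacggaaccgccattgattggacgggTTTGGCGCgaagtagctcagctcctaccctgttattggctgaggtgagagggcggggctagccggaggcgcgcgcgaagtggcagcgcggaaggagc
Mcm7: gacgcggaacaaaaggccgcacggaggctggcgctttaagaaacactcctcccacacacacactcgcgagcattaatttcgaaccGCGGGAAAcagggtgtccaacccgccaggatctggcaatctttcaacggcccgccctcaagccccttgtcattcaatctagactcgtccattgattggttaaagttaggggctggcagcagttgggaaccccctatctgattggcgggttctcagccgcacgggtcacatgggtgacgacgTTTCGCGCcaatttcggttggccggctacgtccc
Cdk1: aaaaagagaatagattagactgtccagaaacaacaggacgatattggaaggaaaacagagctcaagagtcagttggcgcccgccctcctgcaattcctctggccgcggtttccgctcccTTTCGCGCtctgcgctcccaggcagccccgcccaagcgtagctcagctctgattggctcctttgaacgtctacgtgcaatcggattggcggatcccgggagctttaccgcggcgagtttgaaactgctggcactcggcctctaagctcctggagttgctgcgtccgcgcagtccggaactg

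Mcm3, Mcm5 and Mcm7 each held 2 matches, Mcm6 held 3 and Cdk1 held 1, and the longer capital runs in Mcm5 and Mcm6 are overlapping matches on opposite strands. A match is a description of these letters and does not show binding.

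Genes that work beside the members gave the wider picture by phase. The 19 partners of origin licensing and firing had a median of 0.27 relative to all genes, with 12 above the median of all genes and 7 at or below it. At 2-fold, 3 were higher, a share near the 11.5% of all genes, and 0 lower, beside 16.5%. The highest were Cdt1 (1.77), which loads the MCM ring onto origins, and Cdc7 (1.29), the kinase that activates it, and the lowest were Timeless (-0.46) and Gins2 (-0.14). The other Timeless probe gave 1.02, so its sign depends on the probe. The 19 genes of DNA synthesis had a median of 0.18 relative to all genes, with 14 above the median of all genes and 5 at or below it. At 2-fold, 0 were higher and 0 lower, beside 11.5% and 16.5% of all genes. The synthesis genes ran from Rrm2 and Uhrf1 (both -0.39) to Fen1 (0.77) and Rfc2 (0.86). The other Uhrf1 probe gave -1.10, past 2-fold, so the count of 0 lower depends on the probe chosen. The 25 mitosis genes had a median of -0.23 relative to all genes, with 7 above the median of all genes and 18 at or below it. At 2-fold, again 0 were higher and 0 lower, beside the same shares of all genes. The mitosis genes ran from Prc1 (-0.68) and Cenpf (-0.56) to Cenpa (0.49) and Kif23 (0.76). The 5 probes of Prc1 ran from -0.68 to 0.50 and the 2 of Cenpf from -0.56 to 0.12, so both signs depend on the probe. Mki67, the common proliferation marker, had a signal of 3634 on the tumor-draining array and 3543 on the normal array, a difference of 0.10, at the median of all genes. The medians of the licensing and synthesis lists were thus above that of all genes and the median of the mitosis list below it, each by less than 1.5-fold and with genes on both sides.

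Of 13 genes that switch CDKs on and off, 0 were at least 2-fold higher and 1 lower, beside 11.5% and 16.5% of all genes. Wee1, the kinase that holds Cdk1 inactive, gave -1.94, and Btrc, a ubiquitin ligase subunit that helps destroy Wee1, gave -0.87. The highest were Fbxw7 (0.86), which marks cyclin E for destruction, and Pkmyt1 (0.75), a relative of Wee1. The list's median was -0.11 relative to all genes, as was that of 12 cyclins outside the A, B, D and E classes. Of those 12, Ccnt1 and Ccnt2 were at least 2-fold higher and 0 lower, beside 11.5% and 16.5% of all genes. Both calls rest on the probe chosen, as the lowest probe gave 0.92 for Ccnt1 and 0.22 for Ccnt2. Ccnc (-0.22) and Ccnf (-0.15) were the lowest of those cyclins, but further probes reached 0.25 for Ccnc and 0.28 for Ccnf.

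**Figure D3:**
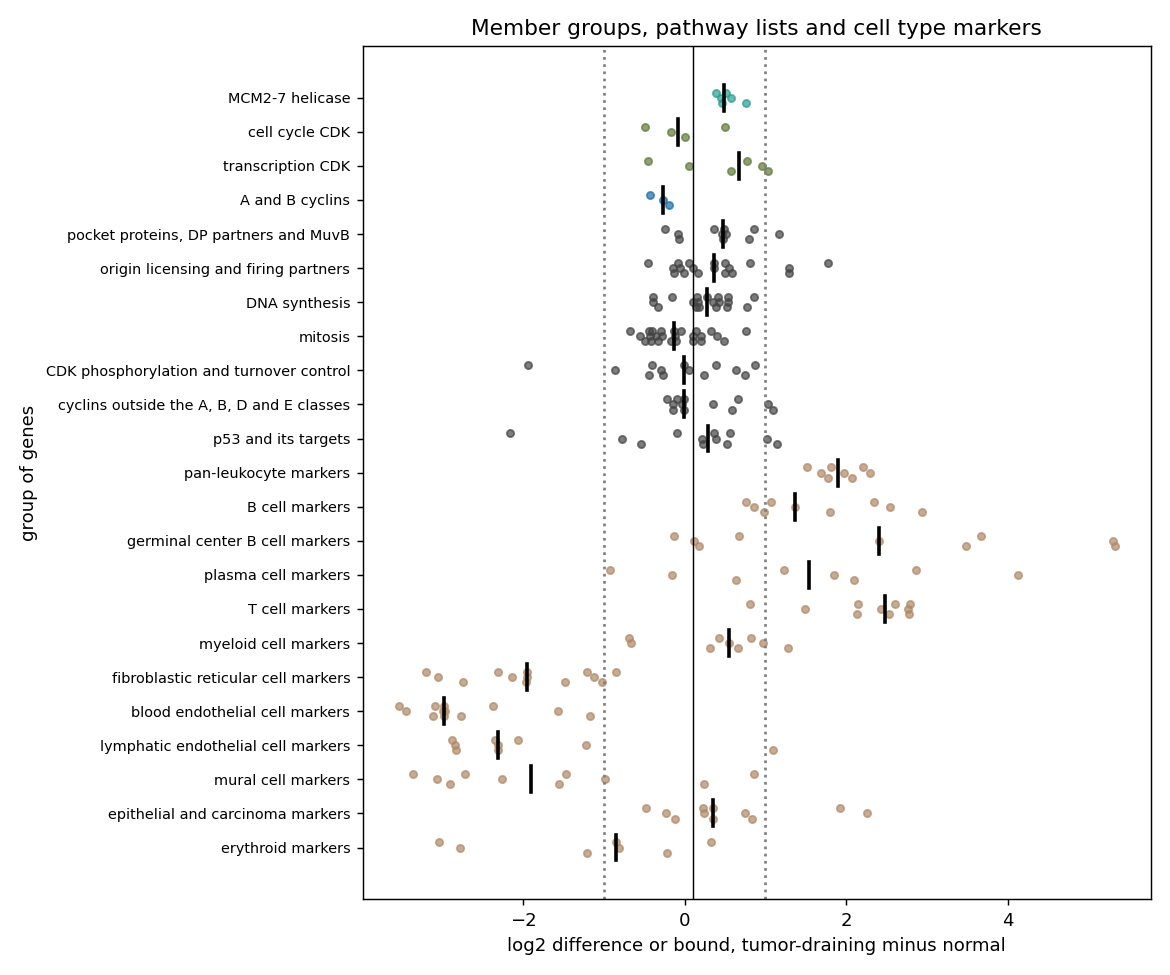
Log2 difference or bound, tumor-draining minus normal (x axis), for groups of members, lists of partner genes and lists of cell type markers down the page; each point is a gene, thick bars are medians, the thin line is the median of all genes (0.10) and dotted lines mark 2-fold. The MCM2-7 points lie between 0.39 and 0.76, while marker lists reach farther in both directions, with 8 of 8 pan-leukocyte markers at least 2-fold higher and 12 of 12 blood endothelial markers at least 2-fold lower.

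**Figure D4:**
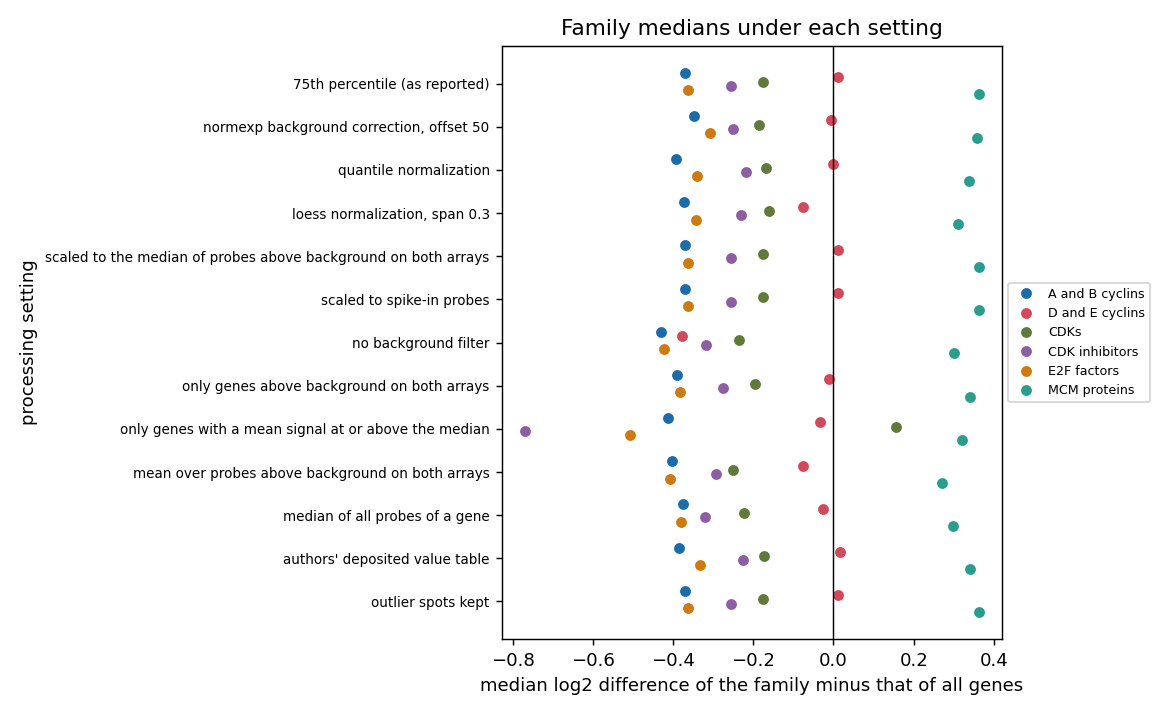
Median log2 difference of each family minus that of all genes (x axis) under 13 processing settings down the page, each point a family. MCM genes stay between 0.27 and 0.36 and A and B cyclins between -0.43 and -0.35, while CDKs reach 0.16 among bright genes only and D and E cyclins -0.38 with no background filter.

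Among settings, MCM genes stayed above and A and B cyclins, E2F factors and inhibitors stayed below the median of all genes in all 13, while the CDKs and the D and E cyclins changed side. The other scalings shift every gene alike and could not change a side, and keeping outlier spots changed no family median. As plain differences, every family median lay above 0 when scaled to the spike-ins. The plot of family medians by setting shows the values relative to all genes.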

How the data were processed

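Total RNA of sorted CD45- lymph node cells was amplified and Cy3-labeled for 2 Agilent arrays of 1 color, per the labels' protocols. The deposited scanner files hold linear intensities with background subtracted by Feature Extraction 12.0.3.1 (protocol GE1_1200_Jun14), per the file headers. Version 10.7 and limma are named in the submitters' processing notes. A value table the authors deposited has log2 values of unstated scale (column medians 4.86 tumor-draining, 4.85 normal; r with log2 processed signal 0.9999) and was used as an alternative only.

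Log2 processed signals were reduced by the array's 75th percentile over 59305 non-control spots, without outlier spots. Repeat spots were averaged, and each gene took its brightest probe by mean of both arrays. Above background means at least 50% of a probe's spots marked well above background. For a gene above background on 1 array, the fold is a bound. Member probes kept the array's own gene symbol, and all other probes were named through RefSeq where possible. Of the 108 member probes, 80 had an accession of the same symbol. Files give no exon or UTR.

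All members are named, with the 2 highest and 2 lowest of each of the 7 pathway lists, Ptprc, Pdpn, Pecam1 and Mki67. Ccnk, Ccnh, Mnat1, Tnfrsf17, Fcgr1, Elf3 and Epb42 were named after their values were seen. Members and lists were chosen with earlier results of these data known. Some marker genes are counted in their lists but not reported here by name. Alternatives were normexp with an offset of 50, quantile and loess (span 0.3) normalization, other scalings, filters, probe summaries and the authors' table. With 1 array in each group, the number of arrays limits the precision. Scripts were tested on simulated data. Tools were Python 3.11.15, numpy 2.4.6, pandas 2.3.3, matplotlib 3.10.9, R 4.3.3 and limma 3.58.1.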

Additional observations from a re-analysis of the deposited data

How the results depend on the processing

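With 1 array in each group no paired analysis and no leave-out was made. No paired analysis was possible because the groups hold 1 array each. The number of members at least 2-fold higher was 1 as reported, where 2824 of 24656 genes passed. It was 0 with normexp correction, where 1392 of 24659 genes passed. With the mean over probes above background on both arrays it was 0, where 2450 of 22162 genes passed. Scaled to the spike-ins it was 21, where 46.0% of all genes passed. The number at least 2-fold lower was 6 as reported, where 4071 of 24656 genes passed. It was 3 with normexp, where 2448 of 24659 genes passed, and 2 with the spike-ins, where 8.01% of all genes passed. Among bright genes only it was 2, where fewer members (33) were measured and 1598 of 11076 genes passed. Relative to all genes, the median of CDK inhibitors was -0.77 and that of CDKs 0.16 among bright genes only, and that of D and E cyclins -0.38 with no background filter, which adds Ccne2. Of single members, 6 moved by more than the between-probe spread with normexp, 6 with the mean over probes, 7 with the median of all probes and 48 with the spike-ins, and 0 with quantile or loess normalization or the authors' deposited table. Whether spike-in RNA was added in equal amounts is unknown here. Members of low signal, such as Cdk15 and Cdk18, are limited by signal over background.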
